A study of Sus scrofa with 6 samples.

Results

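Among the host genes of circular RNAs (circRNAs) in pig testis, those with a single exonic circRNA were described by abundance, exon number, genomic span, recurrence over libraries and change between stages. A host gene was taken when the table analysed here gave it exactly 1 exonic circRNA and no intronic circRNA (ciRNA). Of the 1861 host genes in the table, 659 had an exonic circRNA and 225 met this rule. Of 10 hosts set aside by name, 2 met it, CDS1 and POC1A, and were left out. The remaining 223 hosts made up 33.8% of the exonic hosts and carried 223 of the 2552 exonic circRNAs, or 8.74%. A further 8 hosts had 1 exonic circRNA together with at least 1 ciRNA and were not taken.

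Testes of Landrace boars at 2 ages were compared, 3 piglets at 30 days (Piglet-D30) and 3 sexually mature boars at 210 days (Adult-D210), with 1 library per boar and no treatment in the labels. Total RNA was depleted of ribosomal RNA and treated with RNase R, an enzyme that digests linear RNA. Reads across a back-splice junction, which joins the end of an exon to the start of the same or an earlier exon, were counted for each circRNA. The table held 33091, 18445 and 18618 back-splice reads for Piglet-D30 replicates 1, 2 and 3, and 23583, 14305 and 12701 for Adult-D210 replicates 1, 2 and 3. Levels are given as SRPBM, back-splice reads scaled by read length and by how many reads of that library were mapped. Mapped reads, computed back from counts and SRPBM, ran from 37364412 to 49179118 per library.

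A limit of the table bears on every result. Its exonic circRNAs came from chromosomes 7, 8, 12 and 13 and each of the 2552 was seen in Piglet-D30 replicate 1, the library with the most back-splice reads. A host was therefore single among these circRNAs, and circRNAs of the same hosts seen only in other libraries were not analysed here. JARID2 and TBC1D16 each stood at an end of a run of circRNA numbers in the table, where a neighbouring circRNA of the same host may lie outside it. Recurrence was therefore read in the other 5 libraries, and group means given below that moved by more than 1.5 times without Piglet-D30 replicate 1 are also given without it.

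Exonic circRNAs form when the spliceosome joins a downstream splice donor to an upstream acceptor, often where long flanking introns pair through inverted repeats or are brought together by RNA-binding proteins. Many host genes give several circRNAs by alternative back-splicing, and others give 1 dominant product. Testis is among the tissues rich in circRNAs. The testis of young piglets has not yet begun to make sperm, whereas that of adult boars carries all stages of spermatogenesis, and fewer cells of a type and less RNA per cell cannot be told apart in these bulk libraries.

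The 223 hosts were all listed as mRNA genes. Chromosome 13 held 159 of them, chromosome 8 held 52, chromosome 7 held 10 and chromosome 12 held 2. They made up 36.6% of the exonic hosts of chromosome 13 and 35.6% of those of chromosome 8, against 15.2% and 15.4% on chromosomes 7 and 12, of which the table covered few hosts (66 and 13). The circRNAs lay on the plus strand for 104 hosts and on the minus strand for 119. By symbol 158 hosts were listed, and 65 by Ensembl identifier, of which 35 matched a symbol and 30 did not.

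Most of these circRNAs were of low abundance. The median was 6 reads over the 6 libraries (quartiles 3 and 18), against 10 reads (3 and 31) for the 2329 other exonic circRNAs. A single read was all that was seen for 27 of the 223, or 12.1%, against 9.92% of the others. At least 10 reads were reached by 87, or 39.0%, against 50.8% of the others, and 9 had at least 100. The mean number of reads per circRNA was lower than that of the other exonic circRNAs in each of the 6 libraries, at 7.64 against 12.8 in Piglet-D30 replicate 1 and at 2.93 against 9.37 in Adult-D210 replicate 1.

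The median was higher where the host had more exonic circRNAs, at 6 reads for 1 circRNA, 9 reads per circRNA for hosts with 2 to 7 and 11 for hosts with 8 to 20 or with over 20. The most abundant circRNA of each of the 436 other exonic hosts had a median of 51 reads, a value that is the highest of several for most hosts and so is not measured alike. These shares and medians describe the table, and no test was made over the list of hosts.

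Together the 223 circRNAs took 1704, 710 and 614 reads in Piglet-D30 replicates 1 to 3 and 654, 536 and 447 reads in Adult-D210 replicates 1 to 3. Per 1000000 mapped reads this was 45.6, 16.3 and 14.1 for Piglet-D30 and 13.3, 13.3 and 9.16 for Adult-D210, or 25.3 ± 17.6 (SD, n = 3) and 11.9 ± 2.39 (SD, n = 3). Every piglet lay above every adult on this scale, by little in 2 piglets. The Piglet-D30 mean rested on replicate 1 and was 15.2 without it. All exonic circRNAs together showed the same high library, at 847, 393 and 406 reads per 1000000 mapped reads in Piglet-D30 against 457, 335 and 246 in Adult-D210.

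As a share of the exonic reads of each library the ages did overlap. The circRNAs took 5.39% (95% Wilson interval 5.14 to 5.64), 4.14% (3.85 to 4.45) and 3.49% (3.22 to 3.77) in Piglet-D30. In Adult-D210 they took 2.91% (2.70 to 3.14), 3.96% (3.64 to 4.30) and 3.72% (3.40 to 4.07). The group means were 4.34 ± 0.966% and 3.53 ± 0.550% (SD, n = 3 each), and the intervals cover counting error only.

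**Figure D1:**
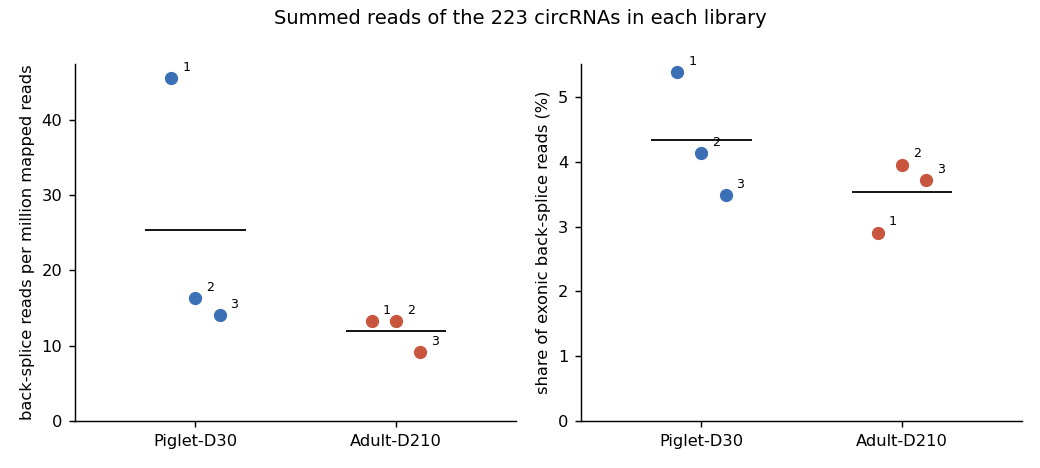
Summed back-splice reads of the 223 circRNAs in each library, per 1000000 mapped reads on the left and as a percentage of the exonic reads of the library on the right, with points numbered by replicate and lines at the group means. Piglet-D30 replicate 1, in which each of these circRNAs has a read by the condition of the table, stands apart at 45.6 on the left. On the right the ages overlap between 3.49% and 3.96%.

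Reads were unevenly spread over the hosts. Of the 4665 reads, the 10 most abundant circRNAs held 1996, or 42.8%, and the 20 most abundant 57.4%. The highest was the circRNA of TMEM43, a protein of the inner nuclear membrane, with 440 reads or 9.43% of the total. It spanned 3 exons and 1699 nt on chromosome 13 (77865050 to 77866748, minus strand, Sscrofa10.2 by the submitters' notes). Its reads were 156, 46 and 84 across the piglets and 56, 58 and 40 across the adults, or 15.9 ± 10.7 and 7.54 ± 2.05 SRPBM (SD, n = 3 each). Its piglet mean was 9.96 without Piglet-D30 replicate 1. The ages overlapped, and the log2 fold change of −0.48 (standard error 0.35) was not called (adjusted p = 0.405, edgeR, Benjamini-Hochberg).

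Next in mean SRPBM over the 6 libraries came EMC3, a subunit of the complex that inserts membrane proteins into the endoplasmic reticulum, and MCM2, a subunit of the replicative helicase. EMC3 had 96, 59 and 23 reads across the piglets and 46, 60 and 35 across the adults, or 9.89 ± 6.84 and 6.97 ± 2.63 SRPBM (SD, n = 3 each). MCM2 had 116, 65 and 32 reads across the piglets and 49, 33 and 13 across the adults, or 11.8 ± 8.06 and 4.62 ± 2.53 SRPBM (SD, n = 3 each). Both overlapped between the ages. Without Piglet-D30 replicate 1 the piglet means were 6.27 for EMC3, below its adult mean, and 7.42 for MCM2. The fitted log2 fold change of EMC3, on the TMM scale, was 0.09. Its sign was not settled, at 0.44 without that library, −0.23 without Piglet-D30 replicate 3, −0.19 without Adult-D210 replicate 2 and −0.50 on the scale of mapped reads, which is that of SRPBM. The circRNA of MCM2 held 2 exons within 527 nt and was the only one of the meiosis, DNA repair and replication list with at least 10 reads.

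The other 7 of the 10 most abundant had 97 to 185 reads each and were seen in all 6 libraries. PRMT9, a protein arginine methyltransferase, had 4.74 ± 3.61 SRPBM in Piglet-D30 and 4.79 ± 1.98 in Adult-D210 (SD, n = 3 each). FGF12, an intracellular fibroblast growth factor homologue that binds sodium channels, had 4.05 ± 2.56 and 3.80 ± 1.80 SRPBM (SD, n = 3 each) from 2 exons spread over 33191 nt. THUMPD3, a methyltransferase of tRNA, had 3.76 ± 2.93 and 3.48 ± 1.45 SRPBM (SD, n = 3 each). The group means of these 3 lay near each other only with Piglet-D30 replicate 1, without which the piglet means were 2.83, 2.60 and 2.07. Their log2 fold changes were 0.57, 0.57 and 0.50, and 1.01, 0.93 and 1.05 without that library, none of them called. On the scale of mapped reads they were 0.04, −0.08 and −0.07, so the sign turned for FGF12 and THUMPD3 and PRMT9 was close to 0. The host ENSSSCG00000028430, which matched no symbol, carried a circRNA of 1 exon and 201 nt, with 21, 23 and 30 reads across the piglets and 5, 8 and 29 across the adults. Its Adult-D210 replicate 3 lay within the Piglet-D30 range. ARL6, ART3 and UBE2G2 complete the 10 and are described with the stage values.

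Library recurrence was low. Of the 223 circRNAs, 79 (35.4%) had reads only in Piglet-D30 replicate 1, against 24.5% of the other exonic circRNAs. None of these 79 had more than 9 reads, and their median was 2. All 6 libraries held a read for 23 (10.3%), against 19.5% of the others, and these 23 carried 57.5% of the reads with a median of 77. Between these ends, 48 were seen in 2 libraries, 31 in 3, 20 in 4 and 22 in 5.

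In Piglet-D30 replicates 2 and 3, 38.1% of the 223 circRNAs had a read in each, against 46.8% and 49.9% of the other exonic circRNAs. In Adult-D210 the shares were 29.6%, 31.8% and 29.6%, against 47.1%, 42.2% and 40.3%. The share was thus lower than that of the other exonic circRNAs in each of the 5 libraries that did not set the table. An Adult-D210 library held a read for 104 circRNAs (46.6%, against 62.5% of the others), and 35 had a read in all 3 adult libraries. Reads confined to Piglet-D30 were seen for 119 (53.4%), of which 9 had a read in all 3 piglet libraries. The reverse, reads confined to Adult-D210, could not occur in this table.

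**Figure D2:**
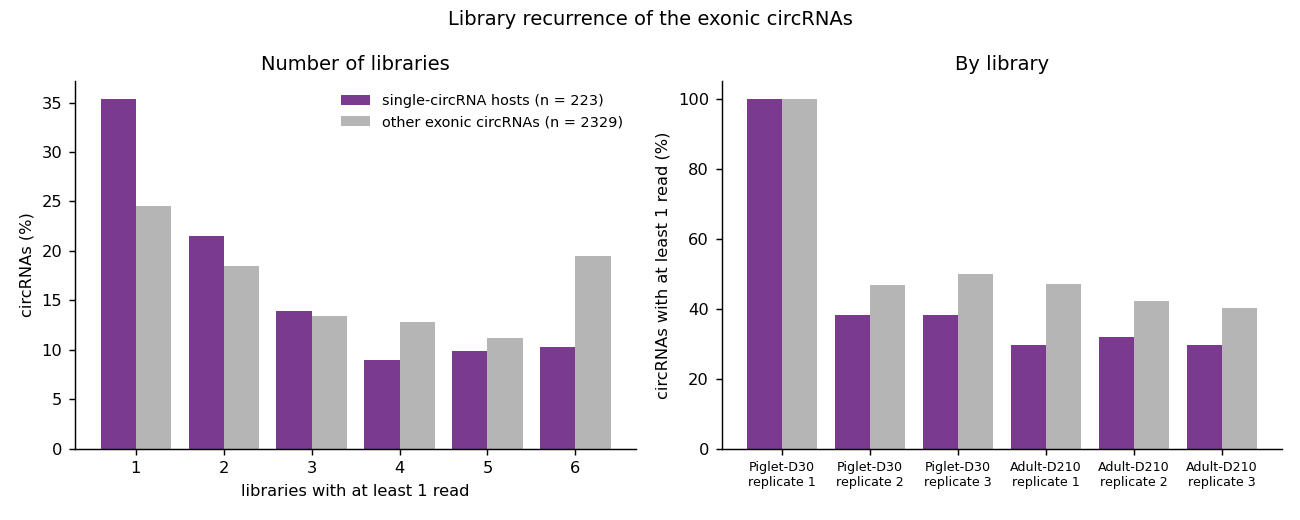
Percentage of circRNAs by the number of libraries with at least 1 read (left) and percentage with at least 1 read in each library (right), for the 223 circRNAs of single-circRNA hosts and the 2329 other exonic circRNAs. Reads in 1 library only were seen for 35.4% against 24.5%, and the 100% bars of Piglet-D30 replicate 1 show the condition that the table puts on exonic circRNAs.

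Among the 87 circRNAs with at least 10 reads, 23 (26.4%) had a read in all 6 libraries, against 38.3% of the 1183 other exonic circRNAs over that minimum, whose median was 30 reads against 23, and 15 (17.2%) had none in Adult-D210, against 8.37% of those others. Recurrence was thus lower above this read minimum too, among circRNAs that also had fewer reads. Near the minimum, 12 circRNAs had 10 or 11 reads and 16 had 8 or 9. Without the reads of Piglet-D30 replicate 1, 60 of the 87 still had at least 10 reads.

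The 223 circRNAs had a median of 3 exons (quartiles 2 and 4, range 1 to 17), against 4 (3 and 6, range 1 to 21) for the other exonic circRNAs as a whole. The most abundant circRNA of each other exonic host also had a median of 3 exons (2 and 4), equal to that of the single circRNAs. Exactly 2 exons were the most frequent class, with 72 circRNAs or 32.3%, against 20.7% of the others. A single exon formed 24 circRNAs (10.8%, against 3.18%), and 6 or more exons formed 30 (13.5%, against 26.7%). The highest median was that of the 2-exon class, at 10.5 reads, and the lowest that of the class with 6 or more exons, at 4 reads. At least 10 reads were reached by 51.4% of the 2-exon circRNAs, by 25% of the 1-exon circRNAs and by 10% of those with 6 or more exons.

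The median span from back-splice acceptor to donor was 4334 nt (quartiles 1578 and 10298), against 9102 nt (3647 and 20034) for the other exonic circRNAs and 5936 nt (2283 and 11160) for the most abundant circRNA of each other exonic host. At the same exon number the medians were 2622 against 2443 nt for 2 exons, 4531 against 5948 nt for 3, 8108 against 9606 nt for 4 and 7537 against 13458 nt for 5. They were thus near each other at 2 exons and lower in the single circRNAs at 3 to 5. Spans ran from 158 to 100548 nt, with 22 circRNAs under 500 nt and 6 over 50000 nt. The mean length of the 2 flanking introns, known for 215 circRNAs, had a median of 4904 nt (quartiles 2426 and 10206), against 6154 nt (2937 and 12242) for 2300 other exonic circRNAs.

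**Figure D3:**
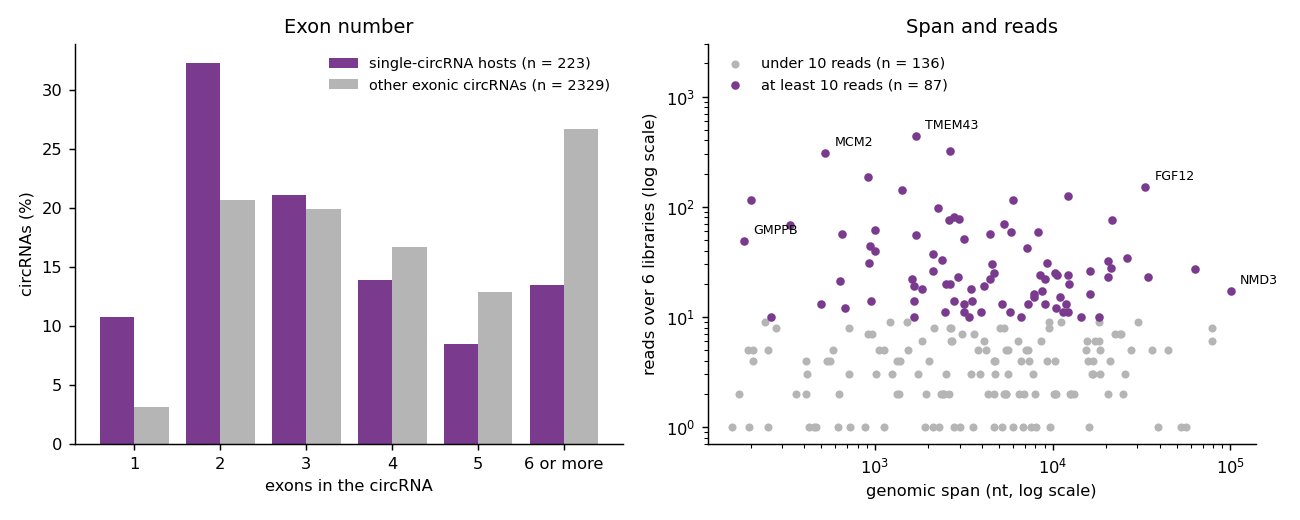
Exon number of the 223 circRNAs and of the 2329 other exonic circRNAs as percentages (left), and genomic span against reads over the 6 libraries for the 223 circRNAs on log scales (right). CircRNAs of 2 exons are the tallest class at 32.3%, and circRNAs with at least 10 reads run from a span of 183 nt (GMPPB) to 100548 nt (NMD3).

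Of the circRNAs with at least 10 reads, 6 consisted of 1 exon. GMPPB, the enzyme that makes GDP-mannose, had the shortest span, 183 nt, with 4, 10 and 4 reads across the piglets and 12, 15 and 4 across the adults. TMCC1, a membrane protein of the endoplasmic reticulum, had 8, 12 and 4 reads across the piglets and 6, 6 and 8 across the adults from 935 nt. Neither separated the ages. DCLK2, a doublecortin-like kinase that binds microtubules, had 43, 17 and 1 reads across the piglets and 0, 4 and 3 across the adults from 335 nt. Its piglet values ran from 0.154 to 7.67 SRPBM, and the lowest of them lay within the adult range. GSKIP, a protein that binds glycogen synthase kinase 3, had 8, 2 and 0 reads across the piglets and none across the adults from 259 nt. The unnamed host ENSSSCG00000011647 had 2, 4 and 5 reads across the piglets and 0, 1 and 0 across the adults, and ENSSSCG00000028430 was given above.

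At the other end, NMD3 and JAM2 had the most exons, 10 each, among circRNAs with at least 10 reads. NMD3, the adaptor that exports the large ribosomal subunit from the nucleus, also had the longest span, 100548 nt, with 6, 7 and 0 reads across the piglets and 3, 1 and 0 across the adults. JAM2, a junctional adhesion molecule, spanned 34594 nt with 14, 4 and 2 reads across the piglets and 0, 3 and 0 across the adults. Both overlapped between the ages. Of all lengths, 9 of the 223 held 10 or more exons.

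The 223 circRNAs hardly overlapped those of other hosts. Only that of B4GALT4, with 13 exons and 8 reads, overlapped circRNAs of another host, which lies on the opposite strand. Some hosts had the same annotation as a neighbour. On chromosome 8, ENSSSCG00000008935, ENSSSCG00000020969 and ENSSSCG00000027031 shared all 8 of their gene ontology terms with each other and with UGT2A3, a glucuronosyltransferase, and the first 2 carried circRNAs of the same span, 1665 nt, on opposite strands. They had 19, 10 and 23 reads, and whether each read was assigned to the right copy was not tested. ENSSSCG00000022733, with 34 reads, shared all 16 of its terms with SLC9A9, a host of 2 circRNAs 177390 nt away on the same strand. ATP13A4, with 6 reads, shared all 14 of its terms with ATP13A3, a host of 11 circRNAs. Whether ENSSSCG00000022733 is a host separate from SLC9A9 was not tested. These hosts were chosen after their values were seen.

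Gene ontology terms of the table were counted for the hosts. Membrane was listed for 72 of the 223 (32.3%, against 27.8% of the 436 other exonic hosts), integral component of membrane for 57 (25.6%, against 19.7%) and extracellular space for 11 (4.93%, against 2.06%), but plasma membrane for 20 (8.97%, against 10.6%). Nucleus was listed for 36 (16.1%, against 25%), ATP binding for 19 (8.52%, against 15.6%) and RNA binding for 7 (3.14%, against 7.80%). No term was given for 24 of the 223 and 33 of the 436 hosts. These shares were not tested, and the terms were chosen after their counts were seen.

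Of 57 marker genes of testicular cell types, 8 were hosts in the table and 0 were among the 223, so the tissue label could not be checked on these circRNAs. A circRNA of a marker gene is in any case not its mRNA. The 8 hosts were GATA4, STAR, CYP17A1, KIT, PIWIL1, ACRV1, ACTA2 and CD163.

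For the comparison of the ages, which asks how circRNAs change as the testis matures, 87 of the 223 circRNAs passed the minimum of 10 reads over the 6 libraries and were tested within the 1341 circRNAs of the whole table that passed it. Since every one of the 87 had a read in Piglet-D30 replicate 1, counts over them cannot weigh one direction against the other. A call needed an adjusted p below 0.05 and a log2 fold change of 1 or more in size. In the quasi-likelihood test of edgeR, adjusted by Benjamini-Hochberg, 2 of the 87 were called (2.30%), against 8.28% of all circRNAs tested. The 87 had a median of 23 reads, against 30 for the other exonic circRNAs over the minimum. Whether fewer reads lowered the share called was not tested. Both called circRNAs were lower in Adult-D210, where 4.85% of all circRNAs were called lower and 3.43% higher, or 65 and 46. That balance depended on the scale, since 68 were called lower and 9 higher with mapped reads as library size. At an unadjusted p under 0.05 there were 23 of the 87 (26.4%), 19 lower and 4 higher. Of all 1341 circRNAs tested there were 337 (25.1%), 230 lower and 107 higher. A total share this close to that of the whole table is no result about these hosts. The split by direction is not read, for the reason given above.

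The first of the 2 was the circRNA of ENSSSCG00000011512, with 2 exons and 3190 nt on chromosome 13 (56459055 to 56462244, minus strand). It had 16, 23 and 12 reads across the piglets and 0 in each adult, or 2.74 ± 0.842 SRPBM (SD, n = 3) and 0. All 3 piglets lay above all 3 adults. Against a floor of 3 reads per library, which stands for 0.407, 0.494 and 0.410 SRPBM in the 3 adult libraries, it was at least 6.26-fold lower in Adult-D210 (adjusted p = 0.00943, edgeR, Benjamini-Hochberg). The gene matched no symbol. All 8 of its gene ontology terms, which include mast cell migration, were among the 9 listed for MITF, a transcription factor of melanocytes and mast cells whose own single circRNA, with 1 read, lay 134086 nt away on the opposite strand.

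The second was the circRNA of TACR3, the receptor of neurokinin B, which acts in the brain on the release of gonadotropin-releasing hormone at puberty. It held 2 exons and 2389 nt on chromosome 8 (126536770 to 126539158, plus strand). It had 22, 7 and 4 reads across the piglets and 0 in each adult, or 1.87 ± 1.79 SRPBM (SD, n = 3) and 0. The groups did not overlap, but replicate 1 held most of the piglet reads. It was at least 4.28-fold lower in Adult-D210 against the same floor (adjusted p = 0.0385, edgeR, Benjamini-Hochberg). The piglet mean was 0.842 SRPBM and the bound 1.93-fold without Piglet-D30 replicate 1. Leaving out any 1 of the 6 libraries ended this call, as did the scale of mapped reads and a block for the replicate number. The adjusted p ran from 0.0208 to 0.165 over the alternatives (edgeR or DESeq2, Benjamini-Hochberg).

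The block also ended the call of ENSSSCG00000011512, which was kept without any 1 library other than Adult-D210 replicate 1. Without that library its adjusted p was 0.0638 (range over the alternatives 0.000445 to 0.109, edgeR or DESeq2, Benjamini-Hochberg), and edgeR called 0 of the 81 circRNAs tested, with 13 at an unadjusted p under 0.05. Calls were fewer over the whole table too without that library, at 3.22% of 1212 circRNAs. Without Piglet-D30 replicate 1, in both filter and test, 60 of the circRNAs were tested and ENSSSCG00000011512 alone was called, 1.67%, against 7.07% of the 1046 circRNAs of the whole table.

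**Figure D4:**
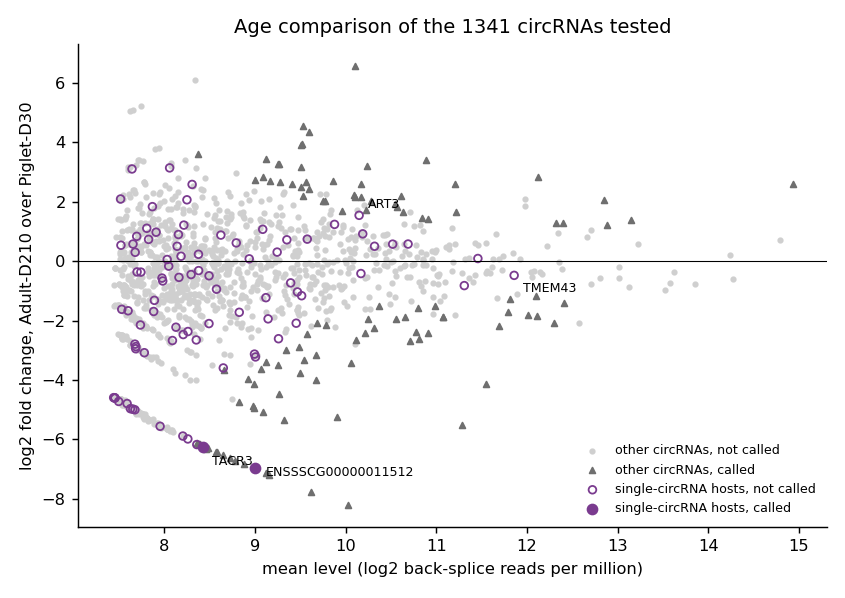
Log2 fold change of Adult-D210 over Piglet-D30 against mean level for the 1341 circRNAs tested, with the 87 of single-circRNA hosts in purple and called circRNAs as filled purple circles or dark triangles. The 2 called hosts lie on the lower edge formed by circRNAs without a read in Adult-D210, where a fitted fold change is no bound.

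Over the 87 circRNAs the median log2 fold change was −0.67 (quartiles −2.73 and 0.57), against −0.42 over all 1341 tested. With circRNAs at 0 in Adult-D210 set to their bound, the medians were −0.45 and −0.40. Scaled by mapped reads in place of TMM factors, the median of all circRNAs tested moved from −0.42 to −0.90 and that of the 87 from −0.67 to −1.16, so changes are given relative to the TMM scale. Without Piglet-D30 replicate 1 the medians were −0.24 over 60 and −0.05 over 1046. SRPBM values of the groups did not overlap for 18 of the 87 (20.7%, 17 lower and 1 higher), against 27.2% of all circRNAs tested, 23.5% lower and 3.73% higher.

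The 5 circRNAs with the smallest p among those with a negative fold change and no call came next. HSPA13, a member of the Hsp70 family of chaperones, had 13, 8 and 14 reads across the piglets and 0, 0 and 2 across the adults, or 1.90 ± 0.590 and 0.0911 ± 0.158 SRPBM (SD, n = 3 each). Its groups did not overlap, Adult-D210 replicate 3 holding the 2 adult reads, and its log2 fold change, −3.59 with a standard error of 1.17, was not called (adjusted p = 0.0664, edgeR, Benjamini-Hochberg). MAML3, a coactivator of Notch signalling, had 34, 18 and 0 reads across the piglets and 3, 1 and 0 across the adults, or 2.94 ± 3.04 and 0.190 ± 0.205 SRPBM (SD, n = 3 each). Without Piglet-D30 replicate 1 its piglet mean was 1.38 SRPBM, and without Adult-D210 replicate 1 its adult mean was 0.0824 SRPBM. Its piglet without a read overlapped the adults (adjusted p = 0.0690, edgeR, Benjamini-Hochberg).

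MYRIP, which links Rab27-bearing vesicles to myosin, had 22, 0 and 9 reads across the piglets and 0 in each adult. TMPRSS7, a membrane-bound serine protease, had 11, 15 and 0 reads across the piglets and 0 in each adult. Against 3 reads per library they were at least 4.05-fold and 3.25-fold lower, with adjusted p-values of 0.0772 and 0.0968 (edgeR, Benjamini-Hochberg), and each had a piglet library at 0. The bound of MYRIP was 1.58-fold without Piglet-D30 replicate 1. The unnamed host ENSSSCG00000009224 had 37, 3 and 11 reads across the piglets and 0, 0 and 4 across the adults (adjusted p = 0.107, edgeR, Benjamini-Hochberg).

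No circRNA of the 223 was called higher in Adult-D210. The closest was that of ART3, a cell-surface member of the ADP-ribosyltransferase family known from testis, with 2 exons and 5964 nt on chromosome 8. It had 12, 6 and 16 reads across the piglets and 33, 27 and 20 across the adults, or 1.84 ± 0.813 and 3.89 ± 0.999 SRPBM (SD, n = 3 each). Every adult lay above every piglet, a ratio of 2.11 in mean SRPBM. This was the only one of the 87 to separate in that direction, as 3.73% of all circRNAs tested did. Since each of the 87 had a read in Piglet-D30 replicate 1, that count is not read. The log2 fold change of ART3, 1.54 with a standard error of 0.49, was not called (adjusted p = 0.0635, edgeR, Benjamini-Hochberg). With no TMM factor or a minimum of 20 reads it passed the limit, and its adjusted p ran from 0.0319 to 0.259 over the alternatives (edgeR or DESeq2, Benjamini-Hochberg).

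APOD, a lipocalin that carries small lipids, had 1, 1 and 0 reads across the piglets and 10, 6 and 1 across the adults, or 0.110 ± 0.0965 and 0.827 ± 0.625 SRPBM (SD, n = 3 each). UBE2G2, a ubiquitin-conjugating enzyme of endoplasmic reticulum-associated degradation, had 20, 10 and 4 reads across the piglets and 29, 18 and 16 across the adults, or 1.90 ± 1.51 and 3.03 ± 0.874 SRPBM (SD, n = 3 each). Both overlapped between the ages, and without Piglet-D30 replicate 1 the piglet mean of UBE2G2 was 1.07 SRPBM. Their log2 fold changes were 3.14 and 1.24 (adjusted p = 0.125 and 0.155, edgeR, Benjamini-Hochberg).

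Of the 8 functional lists, of 55 to 93 genes each, that of the cilium, centriole and sperm flagellum held 8 of these hosts among its 19 exonic hosts, where 33.8% of all exonic hosts were of this kind. At least 10 reads were reached by 3 of the 8, and 0 were called, against 8.28% of all circRNAs tested. With 3 tested, a count of 0 is no result about the list. ARL6, a small GTPase that recruits the BBSome to cilia, had 22, 14 and 13 reads across the piglets and 41, 20 and 15 across the adults, or 2.69 ± 1.07 and 3.63 ± 1.78 SRPBM (SD, n = 3 each). CCDC191, a coiled-coil protein, had 3, 1 and 0 reads across the piglets and 12, 7 and 2 across the adults. CFAP44, needed to build the axoneme of the sperm flagellum, had 4, 0 and 1 reads across the piglets and 4, 8 and 5 across the adults. All 3 overlapped between the ages, and their adjusted p-values were 0.214, 0.136 and 0.223 (edgeR, Benjamini-Hochberg). The other 5 hosts of the list, PLK4, TTC8, CATSPERB, IFT80 and CCDC14, had too few reads to be tested.

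The receptors, kinases and signalling list held 7 of the hosts, 3 of them tested and 0 called. Beside the 8.28% called of all circRNAs tested, this is again no result about the list. TGFBR2, the type II receptor of transforming growth factor beta, had 34, 11 and 19 reads across the piglets and 0, 9 and 2 across the adults, or 3.55 ± 2.26 and 0.585 ± 0.789 SRPBM (SD, n = 3 each). Without Piglet-D30 replicate 1 the piglet mean was 2.30 SRPBM, and without Adult-D210 replicate 2 the adult mean was 0.137 SRPBM. Its groups did not overlap (adjusted p = 0.130, edgeR, Benjamini-Hochberg). PLCL2, a phospholipase C-like protein without catalytic activity, had 15, 12 and 19 reads across the piglets and 14, 4 and 5 across the adults. Its groups overlapped.

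In the other lists 0 of the hosts tested were called. At most 2 hosts were tested in each of them, too few to compare with the 8.28% called of all circRNAs. ADAMTS5, a protease that cleaves aggrecan, had 4, 7 and 7 reads across the piglets and 0, 0 and 2 across the adults. SLC39A8, a transporter of zinc and manganese, had 5, 10 and 6 reads across the piglets and 0, 1 and 2 across the adults. KLHL24, an adaptor of a cullin ubiquitin ligase, had 4, 5 and 4 reads across the piglets and 1, 2 and 0 across the adults. In these 3 every piglet lay above every adult in SRPBM, as in 23.5% of all circRNAs tested. Such a separation is thus frequent in the table. Their adjusted p-values were 0.219, 0.205 and 0.365 (edgeR, Benjamini-Hochberg). ZNF148, a zinc finger transcription factor, had 1, 3 and 4 reads across the piglets and 3, 0 and 2 across the adults. LSAMP, a cell adhesion molecule of the immunoglobulin family, had 3, 0 and 10 reads across the piglets and 1, 8 and 3 across the adults. The last 2 did not separate the ages. In the list of RNA binding, splicing and translation, 4 hosts (G3BP2, HNRNPD, EIF2A and FXR1) had 10 reads together and 0 could be tested.

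**Figure D5:**
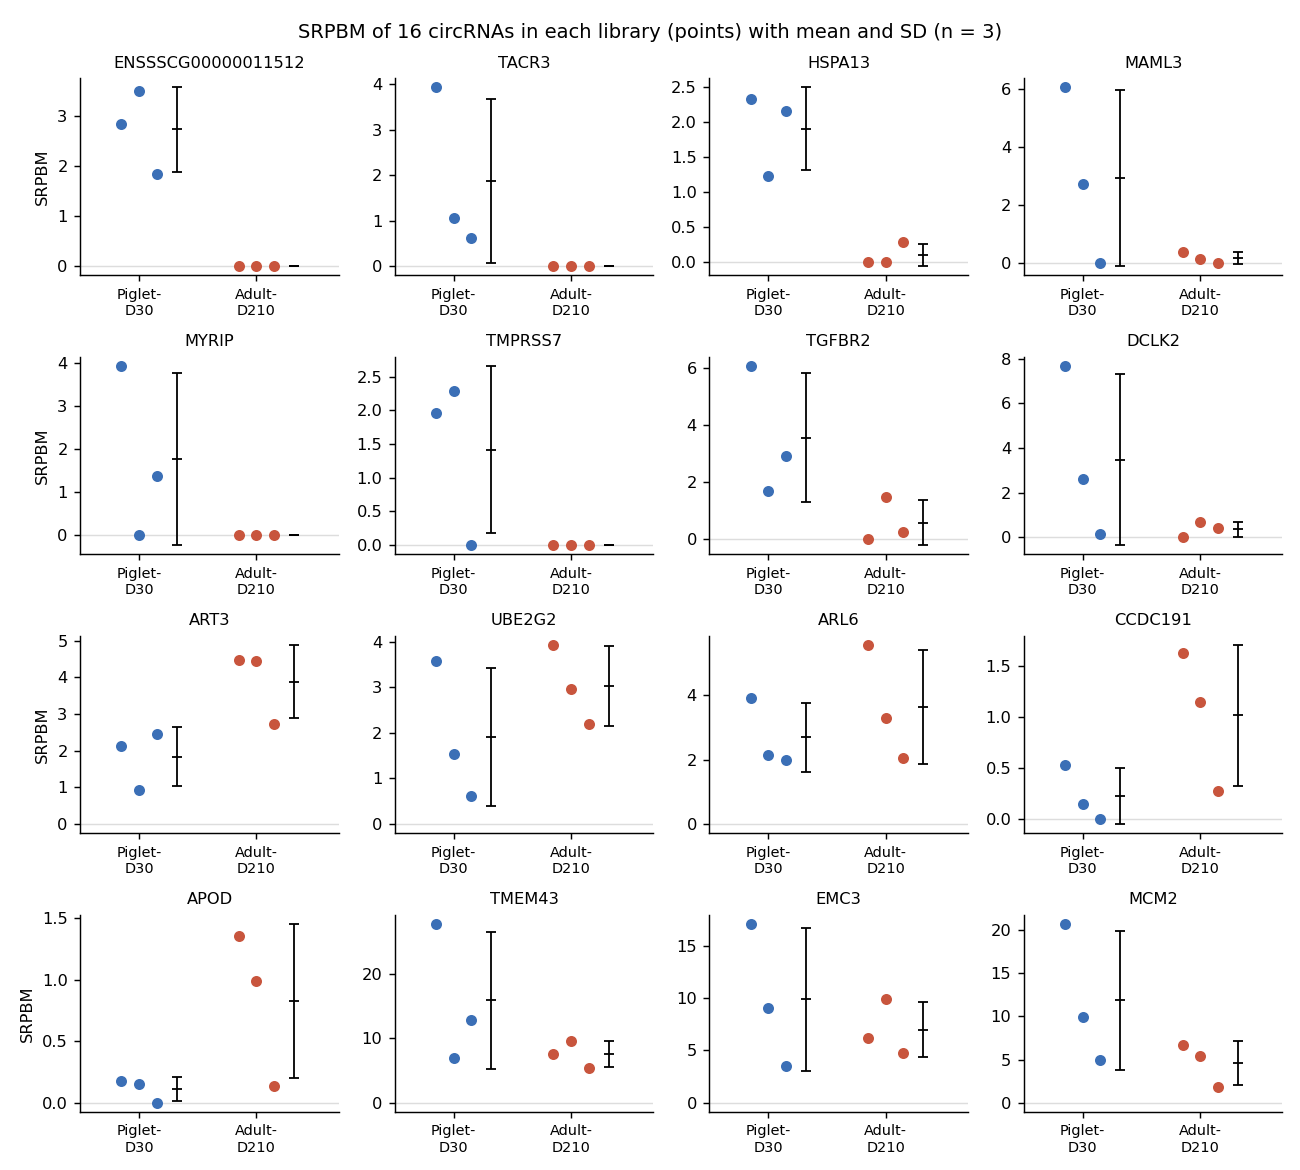
SRPBM of the circRNAs of 16 single-circRNA hosts in each library, with points for the 3 Piglet-D30 and 3 Adult-D210 libraries in order of replicate and mean ± SD beside them, the 16 being chosen after their values were seen. ENSSSCG00000011512 and TACR3 are at 0 in every adult library, ART3 is higher in every adult than in any piglet, and TMEM43, EMC3 and MCM2 overlap between the ages.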

How the data were processed

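Testis libraries of 3 Piglet-D30 and 3 Adult-D210 Landrace boars were used, grouped by their labels, with each library treated as 1 boar as the study's methods describe. The authors trimmed reads with cutadapt, aligned them with TopHat2 and TopHat-Fusion to the pig genome (Sscrofa10.2 in the submitters' notes) and counted back-splice reads with CIRCExplorer2. The deposited counts are raw whole numbers, and the deposited SRPBM signal is these counts scaled by the authors. The exon numbers and coordinates were used as deposited, other values of the table being annotation. Mapped reads were recovered from count over SRPBM at a read length of 150.

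Ages were compared on every circRNA of 10 or more reads in total by edgeR 4.0.16 in R 4.3.3 (TMM factors of the back-splice totals, robust quasi-likelihood F test in its edgeR 4 form, Benjamini-Hochberg adjustment over 1341 circRNAs), with standard errors from the log2 fold change over the root of F. The code was tested on simulated data. No p-value was computed over the list of hosts, and an exact permutation test of 3 against 3 cannot go below 0.1. Alternatives were DESeq2 1.42.0 and its size factors, no TMM, library sizes from mapped reads, the exact test of edgeR, other minimums, exonic circRNAs only, a block for the replicate number and each library left out. The fit was first run in the form before edgeR 4 with library sizes summed after the filter, which called 3 of the hosts (also MYRIP). The edgeR 4 form and whole-table totals were taken after both results were seen, and the former is kept as an alternative. The members and the lists were chosen with earlier results of these data known.

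Hosts named were those called, the 10 with the highest mean SRPBM, those with the most or fewest exons or the longest or shortest span and those in a functional list (both with at least 10 reads), and, among those not called, 5 per direction by smallest p. A host that met this rule is not reported here. Any others were chosen after their values were seen, as were the hosts with too few reads, the gene ontology terms counted and the limits for like neighbours. Of 65 Ensembl identifiers, 35 matched a symbol in the gene name table used and 30 did not. Each pair of libraries of a group differed by more than sampling noise (chi-square over its degrees of freedom from 3.87 to 4.97), and libraries of different groups were not compared in this way.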

Additional observations from a re-analysis of the deposited data

How the results depend on the processing

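The count of 2 circRNAs called was 2 or 3 with DESeq2, DESeq2 size factors, no TMM factor, minimums of 5 or 20 reads, exonic circRNAs only, edgeR's exact test, no fold change limit and, chosen after seeing the data, the quasi-likelihood fit in its earlier form. It was 1 with mapped reads as library size (1.15%, against 5.74% of all circRNAs) and 6 with a minimum of 1 read, when 223 circRNAs were tested (2.69%, against 2.94% of all). Leaving out 1 library gave 0 to 2: 1 without Piglet-D30 replicate 1, Adult-D210 replicate 2 or Adult-D210 replicate 3, and 0 without Adult-D210 replicate 1. With the replicate number as a block edgeR called 0 (adjusted p by Benjamini-Hochberg 0.109 for ENSSSCG00000011512 and 0.165 for TACR3, 17 at an unadjusted p under 0.05), and over all circRNAs 33 were called in place of 111. The numbers do not pair the boars: the deviations of same-numbered libraries correlated at 0.0652, −0.0157 and −0.0258, and the cause of the lost calls was not tested. The median log2 fold change of the circRNAs tested was −1.16 with mapped reads, −1.75, −1.28 and −0.39 with minimums of 1, 5 and 20 reads, −0.66 with the block, and −0.94 to −0.24 with 1 library left out. It was negative under every alternative run. Since each of these circRNAs had a read in Piglet-D30 replicate 1, that constant sign cannot weigh one direction against the other. An Adult-D210 read was counted for 64 circRNAs in place of 104 when 2 of the 3 libraries had to hold it, and for 90 to 92 with a library left out. A read in every library was counted for 23 to 29 with a library left out, and for 19 with at least 2 reads in each. The log2 ratio of the summed reads per mapped read, Adult-D210 over Piglet-D30, was −1.38 to −0.35 with 1 library left out. With circRNAs of at least 2 reads alone, 230 hosts were single, 196 of them among the 223. Of 564 log2 fold changes of the 34 named circRNAs under alternatives, 529 kept direction and side of the limits, 10 lost a call, 10 gained one and 15 turned sign. The lost calls were 8 of TACR3 and 2 of ENSSSCG00000011512, and the gained ones 4 of MYRIP, 2 each of ART3 and MAML3 and 1 each of DCLK2 and ENSSSCG00000009224. With mapped reads EMC3 had −0.50, FGF12 −0.08, THUMPD3 −0.07, TMCC1 −0.41 and LSAMP −0.24. With 1 library left out, EMC3 ran from −0.23 to 0.44 (−0.19 without Adult-D210 replicate 2), ENSSSCG00000028430 from −1.70 to 0.18, TMCC1 from −0.20 to 0.62 (also −0.15 and −0.03), ZNF148 from −0.83 to 0.17, and LSAMP from −0.77 to 1.82 (also −0.24 and −0.06). The cause was not tested.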
